A study of Homo sapiens with 8 samples.

Results

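The 9 genes described here encode α-tubulins (TUBA1A, TUBA1B, TUBA1C and TUBA4A) and β-tubulins (TUBB, TUBB2A, TUBB2B, TUBB3 and TUBB6), of 25192 genes listed in the files. The set was selected on the measured change of TUBA1A, whose mRNA rose far more in HT29 cells than in SW480 cells when the antioxidant enzyme peroxiredoxin II (PrxII, gene PRDX2) was depleted. The other 8 genes are its relatives, and every PrxII siRNA value of the 9 genes is therefore given as a description, without a test. RNA was sequenced from 2 human colorectal cancer cell lines, each transfected with control siRNA or with PrxII siRNA and collected after 36 h, with 2 libraries in each of the 4 groups. Both lines carry a truncated APC tumor suppressor, no group has an intact one, and each is a single established line. HT29 was grown in McCoy's 5A medium and SW480 in RPMI, so that line and medium cannot be told apart. The paper's sequencing methods describe the HT29 samples alone, and line cannot be told apart from sequencing run either. The sources call the libraries duplicates without saying whether they came from separate transfections, and the p-values below measure only the spread between these samples, which may be technical.

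Microtubules are hollow polymers of αβ-tubulin heterodimers that form the mitotic spindle and the tracks of intracellular transport. Humans have several genes, called isotypes, for each subunit, and their proteins copolymerise. TUBA1B, TUBA1C, TUBB and TUBB4B are expressed in most dividing cells, whereas TUBA1A, TUBB2A, TUBB2B and TUBB3 are best known from developing neurons. Cells also adjust tubulin mRNA to the amount of free tubulin: the factor TTC5 binds newly made tubulin on the ribosome and, with SCAPER and the CCR4-NOT deadenylase, brings about decay of the mRNA being translated.

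The isotype genes are so alike that the assignment of a read to a gene has to be considered before any value. On GRCh37 with GENCODE annotation, TUBA1B lies at chr12:49521565-49525180 (minus strand), TUBA1A at chr12:49578469-49582863 (minus strand) and TUBA1C at chr12:49582519-49668383 (plus strand). These spans of TUBA1A and TUBA1C overlap head to head over 345 bases, and the library kit did not mark strand. Whether exons overlap there in the refGene models that the authors counted on was not checked. TUBB2A at chr6:3153731-3157778 and TUBB2B at chr6:3223558-3231964, both on the minus strand, are 65779 bases apart. TUBA4A (chr2:220114432-220142624), TUBB (chr6:30685212-30693315), TUBB3 (chr16:89987800-90005169) and TUBB6 (chr18:12307668-12344319) stand elsewhere. The canonical transcript of each of the 9 genes has 4 exons and encodes 444 to 451 residues.

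The coding sequences of TUBA1A and TUBA1B were identical at 97.2% of 1356 bases, with 38 differences, and the 2 proteins differed at 2 residues. TUBA1A and TUBA1C were identical at 96.3%, with 50 differences, and TUBA1A and TUBA4A at only 85%. TUBB2A and TUBB2B were identical at 98.1% of 1338 bases. Stretches of 100 bases, about the length of a sequencing read in this study, show for the TUBB2 pair what these figures mean for a read. For TUBB2A (chr6:3155058-3155157) and TUBB2B (chr6:3225946-3226045), coding positions 278 to 377 in exon 4 are the same, so that a read from there fits both genes:
TUBB2A and TUBB2B: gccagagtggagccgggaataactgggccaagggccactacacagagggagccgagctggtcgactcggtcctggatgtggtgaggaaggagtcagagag
Coding positions 177 to 276 in exon 3 hold 10 differing bases, the most within an exon (TUBB2A chr6:3155860-3155959, TUBB2B chr6:3226394-3226493), which the capitals mark:
TUBB2A: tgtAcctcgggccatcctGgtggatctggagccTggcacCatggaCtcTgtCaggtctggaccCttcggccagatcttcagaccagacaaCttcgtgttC
TUBB2B: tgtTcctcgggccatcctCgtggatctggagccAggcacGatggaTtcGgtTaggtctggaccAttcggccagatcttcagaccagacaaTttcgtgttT

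Of the 1573 windows of 100 bases in the TUBA1A transcript, 333 (21.2%) occurred unchanged in a transcript of another gene, 282 of them in TUBA1B. The share was 32.1% for TUBA1B, 12.3% for TUBA1C, 53.7% for TUBB2A and 44.7% for TUBB2B. Most windows of a TUBA1A transcript thus belonged to TUBA1A alone, but most of those of a TUBB2A transcript did not belong to TUBB2A alone. TUBA4A shared 1.95% and TUBB3 5.35%, and no window of TUBB or TUBB6 was shared. These shares refer to GENCODE transcripts. That of TUBA1C has 2823 bases, against 1553 bases in the model that was counted, for which no share was computed. With windows of 54 bases, about the difference between the transcript length and the effective length that RSEM wrote for each library, the TUBA1A share was 44.3% and the TUBB2A share 58.9%.

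The deposited expected counts carry a trace of this sharing, since RSEM divides a read that fits several genes among them and the parts need not be whole numbers. TUBA1A, TUBA1B and TUBA1C were each whole numbers in 0 of 8 libraries (tolerance 0.015 counts), whereas the sum of the 3 was whole in 8 of 8. The same held for TUBB2A and TUBB2B, whole in 0 of 8 libraries singly and in 8 of 8 as a sum. TUBA4A, TUBB, TUBB3 and TUBB6 were whole in 8 of 8 libraries. Reads were thus divided within the TUBA1 trio and within the TUBB2 pair, and the sums of these 2 pools do not depend on how they were divided.

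The libraries held 8857442 to 10164137 expected counts, so that 3 counts correspond to 0.295 to 0.339 CPM (counts scaled to the library total). PRDX2 itself was lower after PrxII siRNA in both lines. Its level was 153 and 159 CPM in the HT29 controls and 85.3 and 86.0 CPM after PrxII siRNA, a log2 change of -0.87 ± 0.05 (SE, n = 2 and 2, edgeR's quasi-likelihood test, adjusted p = 1.15e-09). In SW480 it was 202 and 238 CPM in the controls and 67.2 and 68.3 CPM after PrxII siRNA, a log2 change of -1.70 ± 0.12 (SE, n = 2 and 2, edgeR, adjusted p = 0.000618). The colon epithelial markers EPCAM, CDX1, CDX2, VIL1, KRT8, KRT18 and KRT20 were all at 1 TPM (a level scaled by transcript length and library total) or more in HT29 and 5 to 6 of the 7 were in SW480. Of the 4 leukocyte markers 1 was at 1 TPM or more in each library (summed 3.57 to 9.63 TPM, PTPRC at 0 in all 8), of the 4 fibroblast markers 1 was in HT29 and 2 were in SW480 (summed 1.04 to 1.98 and 8.48 to 11.2 TPM, DCN at 0 in all 8), and of the 3 endothelial markers 0 were in HT29 and 1 was in SW480 (summed up to 0.45 and 1.96 TPM). The part of the higher fibroblast and endothelial sums of SW480 in the gaps between the lines was not tested. The SW480 controls stood apart: their chi-square per degree of freedom over genes was 10.64, against 1.42 to 2.08 in the other 3 pairs. The log2 ratio of the SW480 control replicates followed transcript GC content with a Spearman correlation of 0.68 over 12952 genes, against 0.12 to 0.18 elsewhere, a description across genes of 2 libraries. SW480 values are therefore also given with a GC correction and without each control library.

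TUBA1A, an α-tubulin of migrating and extending neurons, was scarce in HT29 and rose after PrxII depletion. In HT29 its level was 8.99 and 8.68 CPM with control siRNA and 39.0 and 37.6 CPM with PrxII siRNA, a mean of 8.84 ± 0.217 against 38.3 ± 0.957 (SD, n = 2). The groups were far apart, and the fitted log2 change was 2.11 ± 0.10 (SE), or 4.31-fold. In SW480 it stood at 224 and 246 CPM with control siRNA and at 309 and 305 CPM with PrxII siRNA, a log2 change of 0.38 ± 0.10 (SE), or 1.31-fold. The groups did not overlap there either. Groups of 2 libraries can lie apart without a change, and the share of all genes that do so was not counted. The change in HT29 exceeded that in SW480 by 1.72 ± 0.13 (SE) on the log2 scale, the value on which TUBA1A was selected. In absolute terms the order was the opposite, with a mean gain of 29.5 CPM in HT29 and 71.9 CPM in SW480. PrxII-depleted HT29 cells still held less TUBA1A than any SW480 library. With 1 library left out, the log2 change lay between 2.08 and 2.13 in HT29, between 0.32 and 0.45 in SW480 and between 1.65 and 1.79 for the difference. After GC correction the SW480 change was 0.40. In such bulk samples, more cells with the mRNA and more mRNA per cell cannot be told apart.

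The abundant α-tubulins did not share this pattern. TUBA1B, the major α-tubulin of dividing cells, stood at 2218 and 2193 CPM in the HT29 controls and at 1982 and 1938 CPM after PrxII siRNA, a log2 change of -0.17 ± 0.02 (SE). TUBA1C, its widely expressed near copy, went from 818 and 810 CPM to 702 and 718 CPM, a log2 change of -0.20 ± 0.02 (SE). TUBA4A, a diverged isotype, went from 115 and 120 CPM to 103 and 93.9 CPM, a log2 change of -0.26 ± 0.05 (SE). All 3 were lower in both PrxII siRNA libraries than in both controls, a description that was not set against all genes. In SW480 the log2 changes of TUBA1B, TUBA1C and TUBA4A were 0.07 ± 0.08, 0.29 ± 0.11 and 0.30 ± 0.13 (SE). The TUBA1B libraries overlapped there, at 2866 and 3395 CPM against 3335 and 3239 CPM. TUBA1C, at 831 and 1052 CPM against 1164 and 1142 CPM, and TUBA4A, at 157 and 199 CPM against 223 and 216 CPM, did not overlap. These SW480 values leaned on the control library used: without control replicate 1 they were -0.05, 0.13 and 0.14, without control replicate 2 they were 0.19, 0.47 and 0.48, and after GC correction they were -0.01, 0.28 and 0.17.

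**Figure D1:**
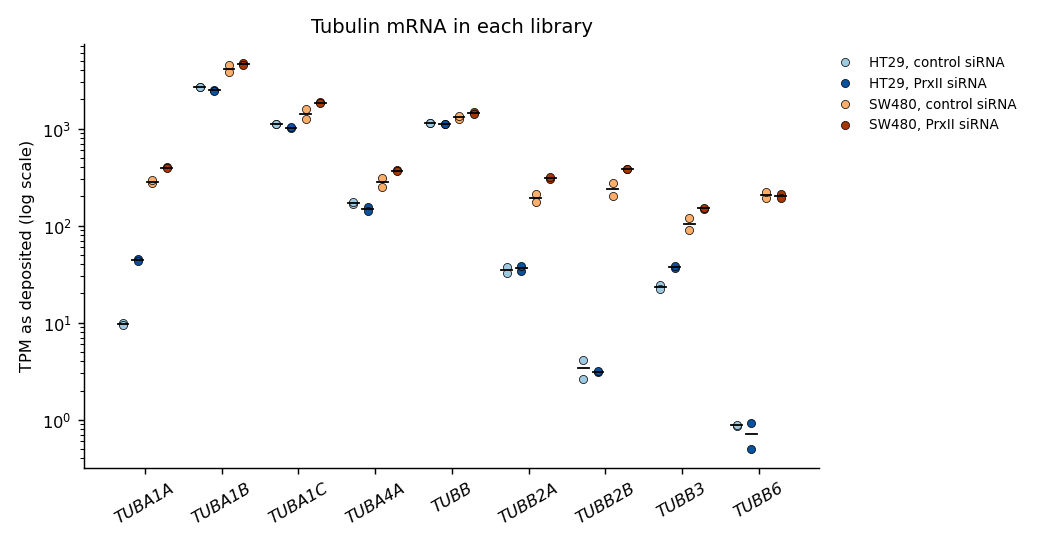
TPM as deposited (log scale) of the 9 tubulin genes in each of the 8 libraries, with points for libraries and a bar for the mean of the 2 libraries of a group. TUBA1A in HT29 moved from about 9.7 to about 44 TPM on PrxII depletion, and TUBB6 stayed below 1 TPM in every HT29 library.

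Since reads are divided within the TUBA1 trio, the 3 genes were also compared as a pool. In HT29 the pool went from 3028 ± 23.4 to 2708 ± 20.3 CPM (SD, n = 2), a log2 ratio of -0.16, while TUBA1A rose within it. TUBA1B was lower by 246 CPM and TUBA1C by 104 CPM, compared with gaps between duplicates of 25.2 and 43.1 CPM for TUBA1B and of 7.52 and 15.8 CPM for TUBA1C. The gain of TUBA1A, 29.5 CPM, equalled 1.34% of the TUBA1B level in the HT29 controls. In SW480 the pool went from 4307 ± 545 to 4747 ± 87.1 CPM (SD, n = 2), a log2 ratio of 0.14, and all 3 genes had higher means after PrxII siRNA. The groups of this pool overlapped, at 3921.1 and 4692.4 CPM against 4808.5 and 4685.4 CPM. Its log2 ratio was 0.02 without control replicate 1 and 0.28 without control replicate 2. The TUBA1B difference there, 157 CPM, was smaller than the gap of 529 CPM between the control duplicates. In both lines the gain of TUBA1A was smaller than the change in TUBA1B or TUBA1C. In HT29 it lay between the 2 gaps of the TUBA1B duplicates, so a loss of that size in TUBA1B could not be seen. Whether a small part of the TUBA1B reads was given to TUBA1A in a different measure after PrxII siRNA was not tested.

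As a share of the counts of the trio, TUBA1A made up 0.296% (Wilson 95% interval 0.239 to 0.366%) and 0.29% (0.233 to 0.36%) in the HT29 controls. After PrxII siRNA it made up 1.43% (1.3 to 1.58%) and 1.4% (1.26 to 1.55%). In SW480 the shares were 5.72% (5.48 to 5.97%) and 5.23% (5.03 to 5.44%) in the controls and 6.42% (6.21 to 6.64%) and 6.51% (6.29 to 6.73%) after PrxII siRNA. The intervals of the SW480 control duplicates did not overlap each other. The intervals cover counting error only and take the divided reads as given. The transcript length that RSEM weighted for TUBA1A was 1916 to 1943 bases across the libraries.

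**Figure D2:**
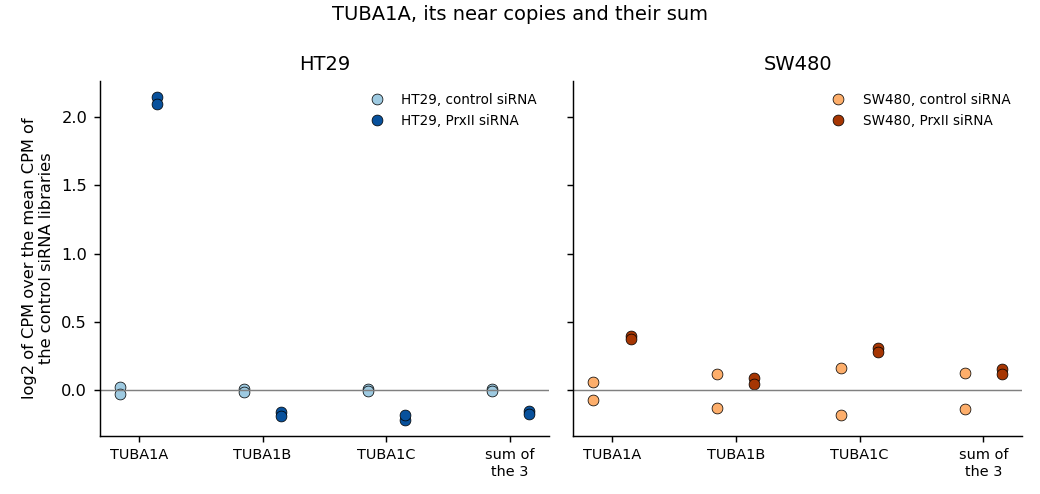
Log2 of CPM over the mean of the control libraries of the same line, for TUBA1A, TUBA1B, TUBA1C and the sum of the 3, with a point for each library (HT29 left, SW480 right). In HT29 after PrxII siRNA, TUBA1A lies near 2.1 while the other genes and the sum lie below 0. In SW480 the groups of the sum overlap.

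Among the β-tubulins, TUBB3 was the other gene that was higher in HT29 after PrxII siRNA. TUBB3, the class III isotype used as a neuronal marker and expressed in some carcinomas, stood at 20.5 and 18.5 CPM in the HT29 controls and at 28.9 and 30.8 CPM after PrxII siRNA, a log2 change of 0.61 ± 0.10 (SE). In SW480 it went from 68.4 and 91.7 CPM to 107 and 109 CPM, a log2 change of 0.43 ± 0.14 (SE). The groups did not overlap in either line. The change in HT29 exceeded that in SW480 by 0.18, a value that ran from -0.06 to 0.37 when 1 library was left out. In SW480 the change was 0.24 without control replicate 1, 0.65 without control replicate 2 and 0.20 after GC correction. TUBB3 transcripts had a GC content of 60.9%, the highest of the 9 genes.

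TUBB2A and TUBB2B, the class II isotypes abundant in brain, were higher after PrxII siRNA in SW480. TUBB2A stood at 121 and 147 CPM in the SW480 controls and at 198 and 209 CPM after PrxII siRNA, a log2 change of 0.61 ± 0.12 (SE). TUBB2B stood at 177 and 243 CPM and at 317 and 317 CPM, a log2 change of 0.60 ± 0.15 (SE). The groups were apart for both, and the pool of the 2 genes, whose sum does not depend on the division of reads, went from 344 ± 65.2 to 521 ± 7.9 CPM (SD, n = 2), a log2 ratio of 0.60. After GC correction the changes were 0.47 and 0.55. Without control replicate 1 they were 0.47 and 0.38, and without control replicate 2 they were 0.75 and 0.84. In HT29 the pool stood at 32.2 and 27.4 CPM in the controls and at 27.8 and 30.6 CPM after PrxII siRNA, and the groups overlapped. The HT29 log2 changes were -0.02 ± 0.10 for TUBB2A and -0.16 ± 0.28 (SE) for TUBB2B, the latter from 23 to 37 counts in each library.

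TUBB, the main β-tubulin of dividing cells, changed little. It went from 1342 and 1334 CPM to 1259 and 1272 CPM in HT29, a log2 change of -0.08 ± 0.02 (SE), and the groups did not overlap. With TPM as the scale the HT29 value was -0.02. In SW480 it went from 1364 and 1459 CPM to 1519 and 1447 CPM, a log2 change of 0.07 ± 0.08 (SE), with overlapping groups. The SW480 change was 0.03 after GC correction, 0.02 without control replicate 1 and 0.11 without control replicate 2. TUBB6, a class V isotype expressed in many tissues, had 4 to 7 counts in the HT29 libraries (0.404 to 0.761 CPM), close to the 3-count limit, and was not tested there. In SW480 it stood at 150 and 176 CPM in the controls and at 156 and 142 CPM after PrxII siRNA, a log2 change of -0.13 ± 0.12 (SE), and the groups overlapped. After GC correction this TUBB6 change was larger, at -0.32 ± 0.07 (SE). Without control replicate 1 it was -0.24, and without control replicate 2 it was -0.02.

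**Figure D3:**
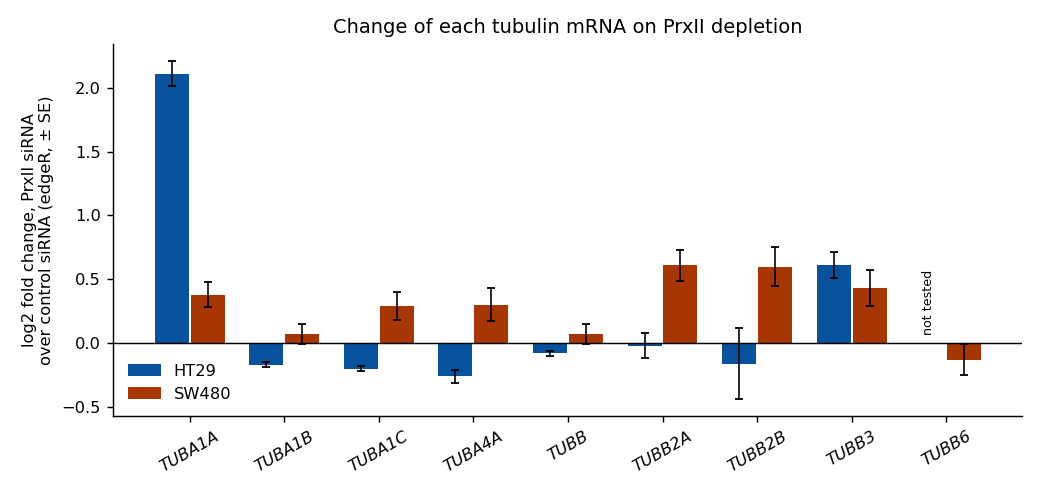
Fitted log2 fold change (edgeR, bars, with SE as error bars) of PrxII siRNA over control siRNA for each tubulin gene in HT29 and SW480, 2 libraries against 2. TUBA1A in HT29 reaches 2.11, no other bar passes 0.61, and TUBB6 has no HT29 bar because its counts were under the filter.

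In HT29, 8 of the 9 genes passed the filter on low counts. TUBA1A and TUBB3 were called higher at an adjusted p under 0.05 (edgeR) and TUBA1B, TUBA1C, TUBA4A and TUBB lower, where 7.76% of 12961 genes were called higher and 9.82% lower. The median log2 change of the 8 genes was -0.12, that of all genes 0.00. In SW480 all 9 were tested and 1, TUBB2A, was called higher, where 1.22% of 14112 genes were called higher and 2.08% lower. Their median was 0.30, that of all genes 0.00. In the comparison of the changes between the lines 1 of 9, TUBA1A, was called, against 1.12% of 14772 genes in either direction, and the medians were -0.24 and 0.01. Nothing is read from these counts, because the genes were selected on the same contrasts.

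The levels of the isotypes before depletion were not used to select the set, apart from the control libraries they share with those contrasts. Several differed widely between the lines. With control siRNA, TUBB2B was 65.1-fold higher in SW480 than in HT29 (210 ± 46.8 against 3.23 ± 1.05 CPM, log2 6.02 ± 0.25 SE, edgeR, adjusted p = 1.9e-07). This value rests on reads divided between TUBB2B and TUBB2A, with 37 and 23 expected counts of TUBB2B in the HT29 controls. The pool of the 2 genes, free of that division, stood at 344 ± 65.2 against 29.8 ± 3.45 CPM (SD, n = 2), a log2 ratio of 3.53. TUBA1A was 26.4-fold higher (log2 4.72 ± 0.14 SE), given without a test since its control libraries entered its selection. TUBB6, at 163 ± 17.7 against 0.748 ± 0.00828 CPM (SD, n = 2), is given without a test too, since its 7 counts in each HT29 control were under the filter and it entered through SW480 alone. Its fitted log2 difference was 7.74, or 6.80 on log2 TPM with a pseudocount of 1. TUBB2A and TUBB3 followed, at 5.02-fold (edgeR, adjusted p = 1.86e-06) and 4.1-fold (edgeR, adjusted p = 1.19e-05). These 5 are also the lowest of the 9 genes by TPM in the HT29 controls.

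The isotypes abundant in both lines differed less. TUBA4A was 1.51-fold higher in SW480 (log2 0.59 ± 0.13 SE, edgeR, adjusted p = 0.00369) and TUBA1B 1.42-fold (log2 0.50 ± 0.09 SE, edgeR, adjusted p = 0.00135). Both calls could be lost when 1 HT29 library was left out. The adjusted p (edgeR) was 0.0728 for TUBA4A without HT29 control replicate 1, and 0.054 and 0.0656 for TUBA1B without replicate 1 and replicate 2. The log2 differences of TUBA1C, 0.21 ± 0.12 (SE, edgeR, adjusted p = 0.146), and of TUBB, 0.07 ± 0.08 (SE, edgeR, adjusted p = 0.44), did not pass the test. Without either SW480 control they did pass, at 0.45 and 0.09 for TUBA1C and 0.20 and 0.09 for TUBB, from a single SW480 control. Of the 7 genes whose test was open, without TUBA1A and TUBB6, 5 were called higher in SW480, where 35.7% of 14346 genes were. Their median log2 difference was 0.59, against 0.04 over all genes. By edgeR or DESeq2 0 of them were called lower, and 0 had an unadjusted p under 0.05 in that direction.

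Per unit of transcript length, TUBA1B led the 9 genes in every group, at 2695 and 2666 TPM in the HT29 controls. TUBB, at 1139 and 1133 TPM, and TUBA1C, at 1126 and 1116 TPM, followed well below it and close to each other, with TUBA4A next at 167 and 174 TPM. TUBB2A (37.2 and 32.8 TPM), TUBB3 (24.6 and 22.3 TPM), TUBA1A (9.97 and 9.49 TPM), TUBB2B (4.17 and 2.61 TPM) and TUBB6 (0.87 and 0.88 TPM) came after, each apart from its neighbours. After PrxII siRNA TUBA1A, at 45.2 and 43.3 TPM, stood above TUBB3 (36.4 and 38.5 TPM) and TUBB2A (34.4 and 38.0 TPM). In the SW480 controls the order below TUBA1B was less distinct. TUBA1C (1255 and 1572 TPM) overlapped TUBB (1268 and 1344 TPM), and TUBA1A (272 and 295 TPM) overlapped both TUBA4A (249 and 313 TPM) and TUBB2B (203 and 277 TPM). TUBB6 (193 and 223 TPM) and TUBB2A (175 and 210 TPM) overlapped each other and TUBB2B, and TUBB3 was lowest at 90 and 119.7 TPM.

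TUBA1A made up a small part of the α-tubulin mRNA throughout. Its share of the summed α-tubulin TPM was 0.244 ± 0.00706% in HT29 controls, 1.2 ± 0.0225% after PrxII siRNA, 4.65 ± 0.307% in SW480 controls and 5.44 ± 0.0486% after PrxII siRNA (SD, n = 2). TUBA1B made up 64 to 67.7% in the 4 groups and TUBA1C 23 to 28.1%. The make-up of the β-tubulins differed more between the lines. In HT29 controls TUBB (55.7 ± 0.467%) and TUBB4B (41.1 ± 0.775%) were nearly all of it, whereas in SW480 controls they made up 41 ± 3.05% and 35.2 ± 1.92%, with 7.45 ± 0.761% from TUBB2B, 6.51 ± 0.0898% from TUBB6 and 6 ± 0.0872% from TUBB2A (SD, n = 2). After PrxII siRNA the TUBB4B share in HT29 was 34.9 ± 0.00636% and that of TUBB 60.8 ± 0.191%. All α-tubulin genes together changed by a log2 ratio of -0.16 in HT29 and 0.15 in SW480, and all β-tubulin genes by -0.17 and 0.20 (CPM). The SW480 ratios leaned on the control library used. For α and β they were 0.02 and 0.09 without control replicate 1, and 0.28 and 0.32 without control replicate 2.

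**Figure D4:**
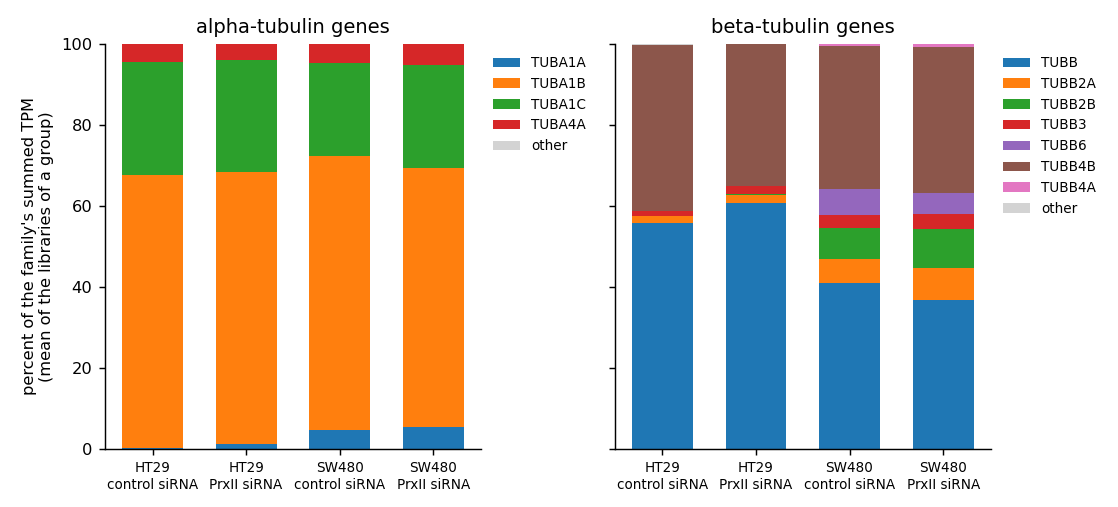
Share of each isotype in the summed TPM of the α-tubulin genes (left) and β-tubulin genes (right), as stacked means of the 2 libraries of a group in percent. TUBA1A is a thin band in every group (0.244, 1.2, 4.65 and 5.44%), and TUBB2A, TUBB2B and TUBB6 are visible mainly in SW480.

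The other genes of tubulin biology were taken from 8 lists that together hold 101 genes in the files. In HT29, 82 of them were tested, of which 5 were called higher and 8 lower (15.9% called), and their median log2 change was -0.02. Over all genes tested in HT29, 7.76% were called higher and 9.82% lower, so that the share of the lists was near that of all genes. DESeq2 called 0 of the listed genes higher in HT29 and 4 lower (TUBB4B, MZT1, CCT6A and TPX2). Over all genes it called 315 higher and 556 lower in HT29. In SW480, 87 were tested, 0 were called higher and 2 lower (2.3%) by edgeR, with a median of 0.05. At an unadjusted p under 0.05 edgeR gave 9 higher and 10 lower there, and DESeq2 called 1 higher and 2 lower. Over all genes tested in SW480, 1.22% were called higher and 2.08% lower. Of the 14 other tubulins, 6 were tested in HT29 and TUBB4B fell. TUBB4B, the second main β-tubulin of dividing cells, went from 615 and 635 CPM to 456 and 463 CPM, a log2 change of -0.45 ± 0.03 (SE, edgeR, adjusted p = 2.76e-09), and no value overlapped. In SW480 it stood at 675 and 868 CPM and at 926 and 919 CPM, a log2 change of 0.26 ± 0.12 (SE, edgeR, adjusted p = 0.215), or 0.06 after GC correction. The changes differed between the lines by -0.70 (edgeR, adjusted p = 0.037), or by -0.49 after GC correction. This call was lost, at an adjusted p (edgeR) of 0.198 to 0.237, when any HT29 library or either SW480 PrxII siRNA library was left out. TUBE1, the ε-tubulin of centrioles, rose by 0.46 ± 0.13 in HT29 (SE, edgeR, adjusted p = 0.0206), a call lost at 0.168 without control replicate 2 and at 0.121 without PrxII siRNA replicate 1.

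In the γ-tubulin ring complex, the template from which microtubules grow, the small subunit MZT1 fell in both lines. It went from 73.5 and 67.8 CPM to 44.9 and 44.3 CPM in HT29, a log2 change of -0.66 ± 0.06 (SE, edgeR, adjusted p = 8.64e-07). In SW480 it went from 59.5 and 46.6 CPM to 24.5 and 26.0 CPM, a log2 change of -1.07 ± 0.15 (SE, edgeR, adjusted p = 0.0116), or -0.71 after GC correction. The call stood with any 1 of the 4 libraries of a line left out, at an adjusted p (edgeR) of at most 1.03e-05 in HT29 and 0.0474 in SW480. The changes did not pass the test of a difference between the lines (0.41 ± 0.17 SE, edgeR, adjusted p = 0.224). NEDD1, which anchors the complex at the centrosome, rose by 0.19 in HT29 (edgeR, adjusted p = 0.0449), but not without control replicate 2 (0.13, edgeR, adjusted p = 0.313). The other 7 genes of this list did not pass the test in either line.

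Of the prefoldin and CCT chaperonin genes, which fold new tubulin, 3 of 14 fell in HT29 and 1 in SW480, where 9.82% and 2.08% of all genes tested fell, and counts this small are not read as particular to the list. CCT6A, a CCT subunit, fell by 0.16 on the log2 scale in HT29 (edgeR, adjusted p = 0.000791) and had the same call with any 1 library left out. In SW480 it fell by 0.71 (edgeR, adjusted p = 0.0198), or by 0.49 after GC correction, from 793 and 630 CPM to 444 and 426 CPM. That call was lost, at 0.133 and 0.215, without PrxII siRNA replicate 1 and replicate 2 of SW480. TCP1 and CCT4, also CCT subunits, both fell by 0.10 in HT29 (edgeR, adjusted p = 0.0483 and 0.0387) and lost the call at up to 0.265 without control replicate 1 and 0.167 without PrxII siRNA replicate 1. Of the 7 tubulin folding cofactors, 0 were called in either line by edgeR or DESeq2, and 3 in HT29 and 1 in SW480 had an unadjusted p under 0.05 (edgeR). Their log2 changes ran from -0.14 to 0.23 in HT29 and from -0.25 to 0.58 in SW480.

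Of the 3 genes of tubulin mRNA decay, C2orf29, a CCR4-NOT subunit now named CNOT11, rose by 0.16 in HT29 (edgeR, adjusted p = 0.0284), a call lost at 0.14 without control replicate 1. TTC5 and SCAPER did not pass the test in either line, and the 3 genes lay between 0.11 and 0.16 in HT29 and between -0.09 and 0.22 in SW480. Of 17 tested enzymes that modify tubulin, AGBL5, a deglutamylase, rose by 0.23 (edgeR, adjusted p = 0.0124) and HDAC6, the tubulin deacetylase, fell by 0.22 (edgeR, adjusted p = 0.00912) in HT29. These calls were lost at 0.103 without PrxII siRNA replicate 2 for AGBL5 and at 0.0682 without PrxII siRNA replicate 1 for HDAC6. Of 21 tested microtubule-associated proteins, CLIP2, which binds microtubule ends, rose by 0.28 (edgeR, adjusted p = 0.0232) and TPX2, a spindle assembly factor, fell by 0.17 (edgeR, adjusted p = 0.00123) in HT29. TPX2 had the same call with any 1 library left out, whereas CLIP2 lost it at 0.13 without control replicate 2. KIF2C, a kinesin that takes microtubules apart, fell by 0.16 in HT29 (edgeR, adjusted p = 0.029), a call lost at 0.14 without PrxII siRNA replicate 1. In SW480, 0 genes of these 4 lists were called by edgeR, 5 higher and 4 lower had an unadjusted p under 0.05, and DESeq2 called 1 higher. With the GC correction KIF2C (-0.26, edgeR, adjusted p = 0.015) and TPX2 (-0.19, edgeR, adjusted p = 0.0494) were called lower in SW480. AGBL5, HDAC6 and CLIP2 were not called there with that correction. With DESeq2, TPX2 alone of C2orf29, AGBL5, HDAC6, CLIP2, TPX2 and KIF2C kept its call in HT29.

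The genes whose pattern over the 8 libraries was most like that of TUBA1A were ranked by the root mean square difference of centred log2 CPM, among 11806 genes. AKAP12, a scaffold for protein kinases, was closest at 0.21. It stood at 44 and 39.3 CPM in the HT29 controls, at 134.4 and 133.2 CPM after PrxII siRNA, at 1080 and 1026 CPM in the SW480 controls and at 1054 and 1022 CPM after PrxII siRNA. Like TUBA1A it was higher in depleted HT29 cells and much higher in SW480, but its SW480 groups overlapped. FOXD1, a forkhead transcription factor, followed at 0.34, with 0.318 and 0.431 CPM in the HT29 controls, about the 3-count limit, 1.01 and 1.63 CPM after PrxII siRNA and 13.3 to 14.7 CPM in SW480. ALDH1A3, a retinaldehyde dehydrogenase, came next at 0.42, with 23.2 and 21.8 CPM in the HT29 controls, 44.6 and 44.9 CPM after PrxII siRNA, 315 and 316 CPM in the SW480 controls and 507 and 523 CPM after PrxII siRNA. PIK3CD, a phosphoinositide 3-kinase subunit, and LOC100506844 followed at 0.46 and 0.50. PIK3CD held 1.27 and 1.08 CPM in the HT29 controls and 2.12 and 2.39 CPM after PrxII siRNA. LOC100506844 held 0.424 and 0.215 CPM, about the 3-count limit, and 0.707 and 0.652 CPM, and was not tested in HT29. FOXD1, PIK3CD and LOC100506844 reached the required mean of 5 CPM over the 8 libraries through SW480 alone. All 5 genes had lower levels in every HT29 library than in every SW480 library, as TUBA1A did, and the 8 libraries share their 4 groups. The ranking used these same libraries, so this likeness follows from how the 5 genes were chosen.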

How the data were processed

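RNA of HT29 and SW480 cells was sequenced paired-end from an unstranded kit. MapSplice was the aligner and hg19 the build. From RSEM on refGene the authors deposited expected counts, TPM, FPKM and transcript lengths per gene symbol. The submitters' processing notes also name FastQC and DESeq2. TPM, scaled by the authors' tool to length and library, gave levels compared between genes. The deposited FPKM were not used.

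Expected counts were rounded and tested in R 4.3.3 with edgeR 4.0.16 (glmQLFit, glmQLFTest, TMM, Benjamini-Hochberg adjustment over all genes tested, threshold 0.05) where 2 or more of the fitted libraries reached 10 counts. Each line was fitted on its own (4 libraries), the difference between lines on all 8. CPM are expected counts over TMM library sizes. SE is the absolute log2 change over the square root of F. Library depth was 8857442 to 10164137 counts.

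Genes were named by a rule: the 9 tubulins, PRDX2, at most 3 called genes with the largest change per list and line (mean of at least 5 CPM), and the 5 genes most like TUBA1A (prior count 2). The genes, lists and tests were chosen with earlier results of these data known. Alternatives were RLE normalization, no filter, DESeq2 1.42.0, limma 3.58.1 on log2 TPM with a pseudocount of 1 or 0.1, all 8 libraries together, a replicate block, a GC correction (loess, span 0.5, for 82.3% of genes with a transcript GC value), and each library left out. Shared windows and identities were computed from canonical transcripts of GENCODE on GRCh37, not from the refGene models that the authors counted on. Some sequences are not reported here.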

Additional observations from a re-analysis of the deposited data

Results flagged for a closer look

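TUBA1A changed by 1.72 more on the log2 scale in HT29 than in SW480, which is the value it was selected on and is given without a test. The effect of PrxII siRNA also differed between the lines for PRDX2 and TUBB4B, by the test of the difference itself in edgeR. PRDX2, the target, fell less in HT29 than in SW480, with a difference of 0.84 (edgeR, adjusted p = 0.0128), 1.00 after GC correction. That call was lost without any HT29 library or either SW480 PrxII siRNA library, at adjusted p of 0.122 to 0.159 (edgeR). The lines thus differed in how far the target itself fell, and the part of this in the tubulin values was not tested. For TUBB4B the difference was -0.70 (edgeR, adjusted p = 0.037). Each group held 2 libraries, and no group was large enough to look for a single outlying library.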

How the results depend on the processing

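Of the values for single genes that carry a test, 252 stayed on their side of the threshold, 84 lost it and 6 gained it, and none of these or of the tubulin changes called with all libraries changed direction. The tubulin values described without a test stayed within the spread of their duplicates in 375 cases and moved beyond it in 14. This spread is the square root of the summed variances of log2 CPM in the groups compared, not the SE. The differences of TUBA1A and TUBB6 between the control lines were counted by their side of the threshold instead. Calls of the tubulin changes on PrxII depletion did cross the threshold, as the counts below show. TUBA1B in SW480, 0.07, was called in opposite directions without control replicate 1 (-0.05) and without control replicate 2 (0.19), where the spread is taken from the remaining pair. TUBB2A and TUBB2B in HT29 and the differences between the lines of TUBB3 and TUBB6 crossed 0 with 1 library left out (to 0.08, 0.21, -0.06 and 0.15). Of the counts and pools, 59 moved and 125 did not. The number of genes called in HT29, 2279, was 871 with DESeq2 and 185 with all 8 libraries fitted together. In SW480 it was 466, but 2207 with the GC correction, 2415 with all 8 libraries together, 185 and 209 with limma on log2 TPM at pseudocounts of 0.1 and 1, and 87 to 7364 with 1 library left out. The lowest were 105 and 87 without PrxII siRNA replicate 1 and 2, and the highest 3437 and 7364 without control replicate 1 and 2, where the spread is taken from the remaining pair. For the difference between the lines, 166 became 311 with DESeq2, 917 with the GC correction, 48 and 93 with limma, 267 with no filter and 6 to 5237 with 1 library left out. Among the 9 tubulins, the 6 calls in HT29 became 1 with all 8 libraries together. The 1 call in SW480 became 3 with DESeq2, 5 with the GC correction or all 8 libraries, and 0 to 8 with 1 library left out, and the 1 for the difference became 4 with DESeq2, 5 with the GC correction and 1 to 7 with 1 library left out. The 13 pathway calls in HT29 became 4 with DESeq2, 1 with all 8 libraries and 6 to 11 with 1 library left out. The 2 in SW480 became 13 with the GC correction, 16 with all 8 libraries, 1 and 1 with limma, and 1 to 54 with 1 library left out. On TPM, the HT29 log2 ratios of the TUBA1 trio, all α-tubulins and all β-tubulins were -0.10, -0.11 and -0.15. With limma at a pseudocount of 1 the share of higher calls was 69.3% in HT29 (44.1% with edgeR) and 59.3% in SW480 (36.9% with edgeR), 44.1% against 54.8% for the difference, and the median of all genes between the control lines moved from 0.04 to 0.15. The causes of these shifts were not tested.

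The groups share replicate numbers, but same-numbered libraries deviated together with correlations of only 0.05 to 0.08, and the main fit does not pair them. With 2 libraries in each group and SW480 controls that differ with GC content, this check cannot exclude a pairing. With the replicate block the calls were 2889 in HT29 and 1727 in SW480, with 4 tubulins and 11 pathway genes in SW480. With the GC correction and the replicate block they were 2866 in SW480 and 900 for the difference, with 6 and 5 tubulins, and 21 and 18 pathway genes in HT29 and SW480. At this depth TUBB6, TUBB2B, FOXD1, PIK3CD and LOC100506844 in HT29 rest on few counts, 4 to 7 for TUBB6.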
